A study of Oryza coarctata with 5 samples.

Results

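*Oryza coarctata* (*Porteresia*), a wild relative of rice from saline, tidally flooded coasts, was sequenced here as plants held under water in 450 mM NaCl and as plants held under water without salt. The comparison asked what 450 mM NaCl added when submergence was the same in both. It covers 70288 of the 152367 assembled transcripts: those with RPKM of at least 1 in either submerged library and above 0 in all 5 libraries of the series. RPKM is the number of reads per kilobase, scaled to the read total of each library. Below, "members" are these 70288 transcripts, "higher" and "lower" mean higher and lower in submergence in salt, and a log2 ratio is that of RPKM + 0.5, which understates differences of low transcripts.

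The plants were mature and were collected in nature. There were 5 treatments with 1 library each. Plants under water were kept without salt or in 450 mM NaCl, and plants not submerged were kept in water (the control), 450 mM NaCl or 700 mM NaCl. The sources used here do not give genotype, age, time in treatment or number of plants per library, and the labels name the tissue only as mature plant. With 1 library per treatment no test was possible, and the effect of salt cannot be told apart from any other difference between the plants or preparations behind the pair.

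Submergence slows gas exchange and lowers light. Plants run short of oxygen and turn to fermentation and stored carbohydrate, while the gas ethylene builds up in their tissues. Salt draws water from cells and loads them with sodium and chloride, which halophytes such as *O. coarctata* exclude, secrete through leaf salt hairs or confine to vacuoles. The transcript numbers carry no gene names in the files, so which of these processes a transcript serves is not known here and the labels could not be checked against marker genes. Transcripts are described by number, level and pattern. Several can belong to 1 gene, and near-identical gene copies of a polyploid can share reads.

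The submerged libraries were the deepest of the series, with 78997383 reads in water and 74867541 in salt, against 56638113 to 59818916 in the other 3. These totals, transcript lengths and whole reads were solved from the steps between RPKM values. Members had a median of 307 reads over the pair. Intervals in brackets beside folds are exact 95% intervals that cover counting error of reads only. The folds of single transcripts beside them are ratios of RPKM with nothing added. Intervals beside shares of members are exact 95% binomial intervals over transcripts and do not cover counting error of reads. They take transcripts as independent, although several can belong to the same gene, so they describe the shares and test nothing.

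Under water, plants with and without salt differed by 2-fold or more in a small share of transcripts. Among members these were slightly more often upward in salt, but the balance reversed without the requirement for RPKM above 0 in all 5 libraries. Among the 70288 members, 3503 (4.98%) were at least 2-fold higher in salt and 2787 (3.97%) at least 2-fold lower. Among members the imbalance was wider for large differences: 359 (0.511%) were at least 4-fold higher and 105 (0.149%) at least 4-fold lower. The 4-fold counts were not recomputed without the requirement for RPKM above 0 in all libraries. At 2-fold, that requirement left out 1317 lower and 42 higher transcripts. The median log2 ratio was −0.07, with quartiles of −0.40 and 0.27 and a standard deviation of 0.60, and its 1st and 99th percentiles were −1.41 and 1.72. In whole tissue, fewer cells with a transcript and less of it per cell cannot be told apart.

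Counting intervals were set against 1 and against 2-fold. The counting interval of the read ratio lay on 1 side of 1 for all 3503 higher and all 2787 lower members. The rules for a call largely fixed this: RPKM of at least 1 at 200 nt or more, and 2-fold after adding 0.5. For 2529 of the higher members (72.2%) the whole interval lay above 2-fold, and for 1708 of the lower members (61.3%) it lay beyond 2-fold in the other direction. Variation between plants of 1 treatment is not part of these intervals.

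The balance of directions depended on the requirement for reads in all 5 libraries. Without it, 72628 transcripts had RPKM of at least 1 in either submerged library, of which 3545 (4.88%) were higher and 4104 (5.65%) lower. The 2340 left out for RPKM 0 in some library thus held 42 higher and 1317 lower transcripts. Of these 1317, 1154 were at 0 in the 700 mM NaCl library and 185 were at 0 in submergence in salt. At the other edge of the selection, Pc_TC112600 was just inside the limit of RPKM 1, with 1.00001 in water and 0.69 in salt. Pc_TC113945 was just outside it, with 0.84 in water and 0.99998 in salt.

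**Figure D1:**
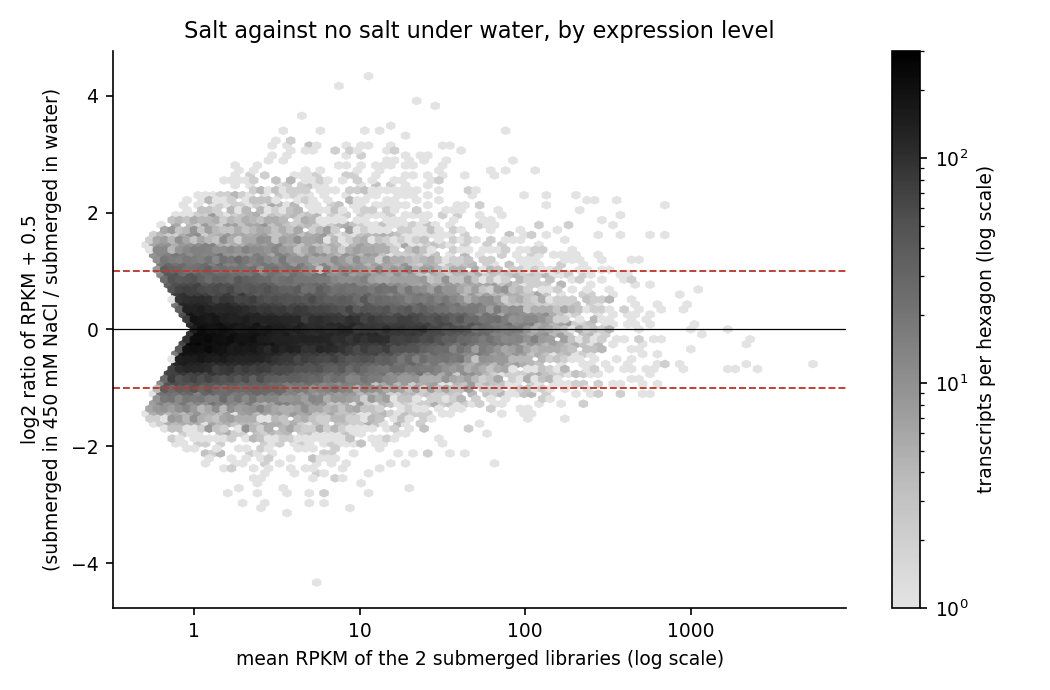
Log2 ratio of RPKM + 0.5, submergence in salt over submergence in water (vertical), against the mean RPKM of the 2 libraries (horizontal, log scale) for 70288 members; shading gives transcripts per hexagon and dashed lines mark 2-fold. The cloud centres near 0 (median −0.07) at all levels and reaches 4.34 upward and −4.33 downward; the notch at the left comes from the limit of RPKM 1.

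The middle of the distribution moved little with expression level, where level is the mean RPKM of the pair. Median log2 ratios went from −0.11 in the 26719 members under RPKM 2 to 0.0046 in the 242 members at 200 and over, passing −0.09 (2 to under 5), −0.06 (5 to under 10), −0.02 (10 to under 50) and 0.01 (50 to under 200). The standard deviation was lowest in the class from 10 to under 50, at 0.55, and highest at 200 and over, at 0.72. With 0.5 added, the spread was thus widest among the most abundant transcripts. The added 0.5 narrows the spread at low levels: with 0.1 the standard deviation over all members was 0.74. The order of the classes was not recomputed with other pseudocounts.

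Shares of higher members were similar in 5 of the 6 level classes. They were 5.40% under RPKM 2, 5.08% from 2 to under 5, 4.39% from 5 to under 10, 4.35% from 10 to under 50 and 4.86% from 50 to under 200. At 200 and over the share was 9.09% (22 of 242 members, binomial interval 5.79% to 13.4%). This interval takes transcripts as independent, which was not tested. Lower members made up 4.66% of the lowest class, 2.45% from 10 to under 50 and 4.55% (11 members, 2.29% to 7.99%) at 200 and over. The share in the lowest class hung on the added 0.5: with 0.1 it was 10.3% higher and 11.3% lower, and with 1 it was 1.90% and 1.17%.

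When level was taken from the other 3 libraries, which are not part of the ratio, direction and level went together. Of the 288 members with a mean of at least 200 RPKM in the water control, 450 mM and 700 mM NaCl, 69 (24.0%, interval 19.1% to 29.3%) were higher in salt under water and 0 were lower, which allows a share of up to 1.04% when a count of 0 is taken to allow 3 counts (exact interval up to 1.27%). Of the 4180 members under 0.5 RPKM there, 80 (1.91%) were higher and 815 (19.5%) lower. In between, the share of higher members was larger and that of lower members smaller in each class than in the class below it. Median log2 ratios went from −0.61 in the lowest of these classes to 0.48 in the highest. A member low in the other 3 libraries had to reach RPKM 1 in a submerged library to be included, so every member of the classes under 1 was above its unsubmerged mean in at least 1 submerged library.

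**Figure D2:**
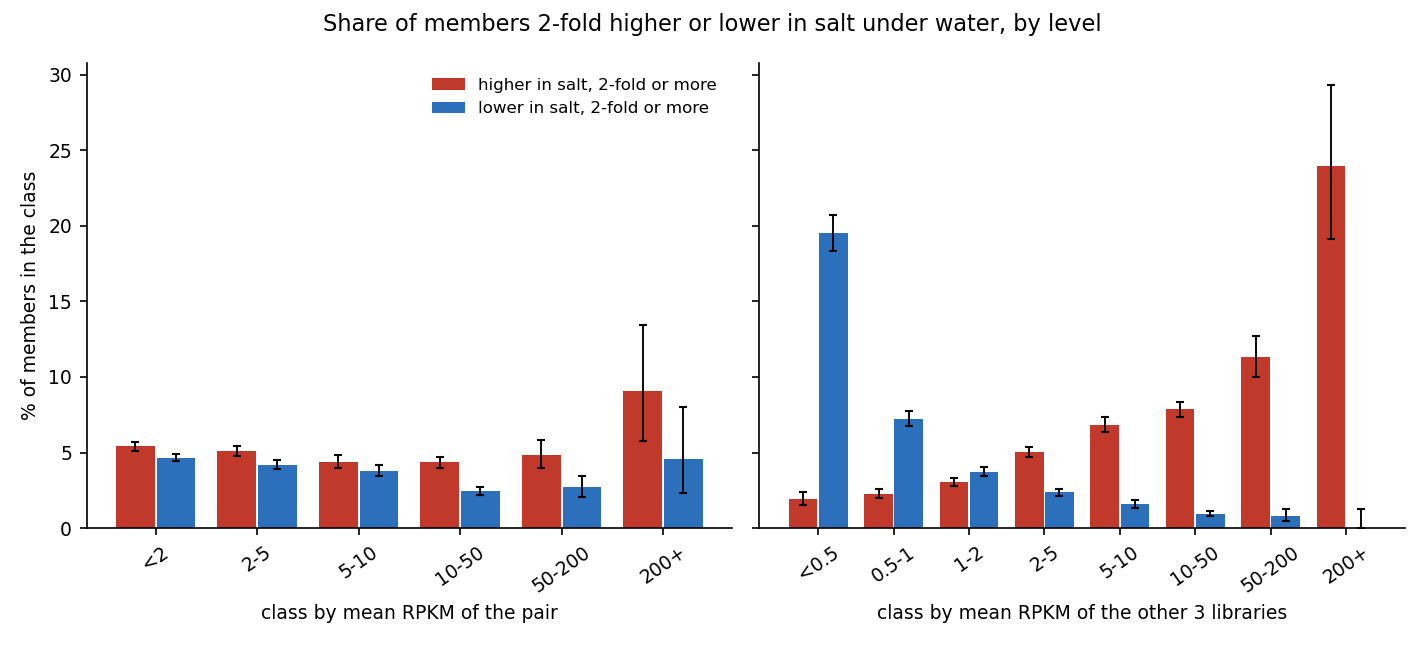
Percent of members in each level class that were 2-fold higher (red) or lower (blue) in salt under water, with exact 95% binomial intervals; the horizontal axis is the mean RPKM of the pair (left) or of the other 3 libraries (right). On the left the red bars differ little up to RPKM 200 and the blue bars drop from 4.66% to 2.45% at 10 to under 50; on the right the red bars climb from 1.91% to 24.0% and the blue bars drop from 19.5% to 0.

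Shorter transcripts were past 2-fold more often. Of the 22607 members of 200 to under 400 nt, 6.13% were higher and 5.49% lower, against 3.63% and 2.57% of the 14149 members of 1600 nt and over. Shorter transcripts hold fewer reads at the same RPKM. The median length was 508 nt for higher members, 463 nt for lower members and 658 nt for all members, and the median reads over the pair were 228, 201 and 307. The part of length or read number in the calls was not tested.

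For each of the 8 members with the largest log2 ratios upward, submergence in water was the lowest of the 5 libraries. They formed a group in which the level under water in salt lay between those of submergence in water and of unsubmerged plants, and a group in which it reached or passed the level of the control. Pc_TC125462 (632 nt) showed the largest ratio: under water it stood at 0.60 RPKM without salt and 21.8 with salt, and unsubmerged it stood at 136 (control), 162 (450 mM) and 190 (700 mM). From 30 and 1032 reads, it was 36.3-fold higher in salt under water (25.3 to 54.1; log2 ratio 4.34). Pc_TC094501 (445 nt) had the same form, at 0.40 and 15.4 RPKM under water and 205, 206 and 249 in the unsubmerged plants (38.6-fold, 22.8 to 71.1). In both, the level under water in salt stayed below that of every unsubmerged library.

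Pc_TC088632 (275 nt) and Pc_TC035198 (1246 nt) were instead highest of all in submergence in salt. Pc_TC088632 stood at 2.39 RPKM under water without salt and 41.7 with salt, and at 5.33 (control), 10.3 (450 mM) and 8.84 (700 mM) unsubmerged (17.4-fold, 13.2 to 23.5). Pc_TC035198 stood at 3.42, 56.5, 9.03, 18.6 and 13.1 RPKM in the same order (16.5-fold, 14.8 to 18.5). For each, submergence in water was lowest, salt without submergence was above control at both doses, and salt with submergence was far above the other 4.

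Pc_TC100855 (337 nt) stood at 0.23 RPKM (6 reads) under water without salt and 8.92 with salt, and at 7.07 (control), 15.1 (450 mM) and 14.5 (700 mM) unsubmerged (39.6-fold, 17.9 to 109). Pc_TC009325 (1785 nt) stood at 2.01, 28.3, 9.64, 17.1 and 26.5 RPKM in the same order (14.1-fold, 12.5 to 15.9). Pc_TC021336 (1274 nt) was the most abundant of the 8, at 12.3, 140.3, 53.9, 101 and 104 RPKM (11.4-fold, 10.8 to 12.1). Pc_TC076720 (930 nt) stood at 0.19, 6.76, 1.75, 4.87 and 8.52 RPKM (35.5-fold, 20.9 to 65.4). In all 8 members, the level in salt exceeded its no-salt partner both without and with submergence. For Pc_TC094501 without submergence, the control and 450 mM NaCl were nearly equal (205 and 206 RPKM).

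The 8 largest differences downward were, with 1 exception, transcripts highest in submergence in water and low in submergence in salt. Pc_TC067107 (759 nt) stood at 11.4 RPKM under water without salt and 0.088 with salt, and at 0.047 (control), 0.20 (450 mM) and 0.045 (700 mM) unsubmerged. Its reads were 681, 5, 2, 9 and 2, so nearly all of them came from 1 library, and it was 129-fold lower in salt under water (55.0 to 399; log2 ratio −4.33). Pc_TC118898 (494 nt) stood at 15.8, 1.49, 1.47, 0.85 and 0.49 RPKM (10.6-fold lower, 8.03 to 14.2). Pc_TC118813 (1460 nt), the longest of the 8, stood at 8.78, 0.70, 0.47, 0.46 and 0.16 RPKM (12.6-fold lower, 9.999 to 16.2). Under water in salt, Pc_TC118898 was close to its control level and Pc_TC118813 was somewhat above it.

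Another group was low in all 3 libraries with salt and detected in both without it. Pc_TC121132 (384 nt), the exception above, was highest in the control: it stood at 8.05 RPKM in the control and 4.98 in submergence in water, against 0.26 at 450 mM, 0.27 at 700 mM and 0.17 in submergence in salt (28.6-fold lower under water, 12.0 to 89.4, from 151 and 5 reads). Pc_TC079176 (674 nt) stood at 1.86 and 4.98 RPKM without salt and at 0.074, 0.25 and 0.20 with it (25.1-fold lower under water, 13.4 to 53.0). Pc_TC076332 (221 nt) stood at 2.40 and 7.27 RPKM without salt and at 0.30, 0.15 and 0.36 with it (20.1-fold lower, 8.97 to 55.7). Each of these 3 had 10 or fewer reads in every salt library.

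The remaining 2 of the 8 were also highest in submergence in water, Pc_TC076145 with a form like that of Pc_TC067107. Pc_TC076145 (701 nt) stood at 3.90 RPKM under water without salt and 0.076 with salt, and at 0.23 (control), 0.095 (450 mM) and 0.049 (700 mM) unsubmerged (51.2-fold lower, 19.7 to 189.5, from 216 and 4 reads). Pc_TC100876 (243 nt) stood at 11.5, 0.99, 1.02, 2.75 and 0.77 RPKM in the same order (11.6-fold lower, 7.16 to 19.9). It was thus higher with 450 mM NaCl in plants not submerged and lower with it under water.

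**Figure D3:**
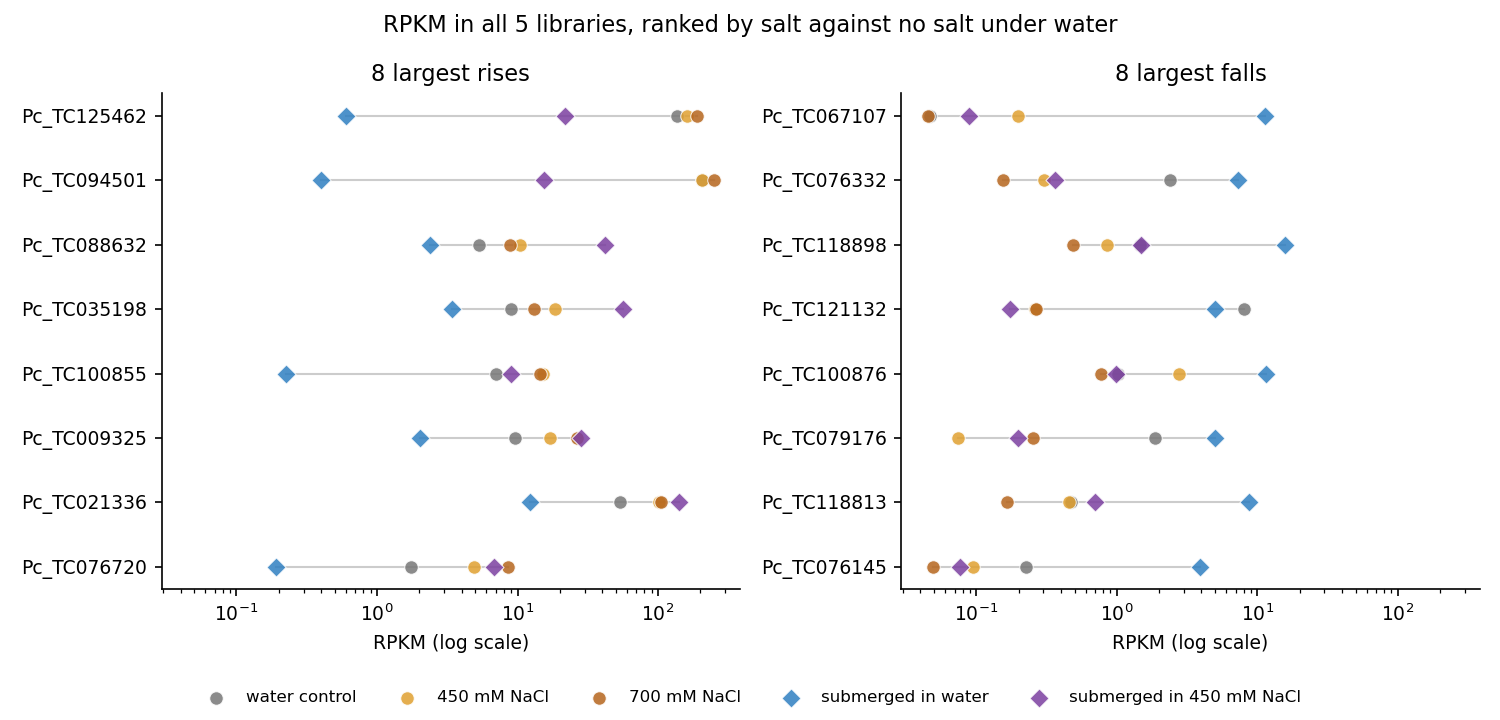
RPKM (horizontal, log scale) in the 5 libraries for the 8 members with the largest rise (left) and the largest fall (right) from submergence in water (blue diamond) to submergence in 450 mM NaCl (purple diamond); circles are the 3 unsubmerged libraries. On the left the blue diamond is the lowest point in all 8 rows; on the right it is the highest in 7 of 8, the exception being Pc_TC121132.

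Among abundant transcripts, as among all members, more were higher than lower. Of the 1019 members that reached RPKM 100 in either submerged library, 90 (8.83%) were at least 2-fold higher in salt and 48 (4.71%) lower. The shares over all members were 4.98% and 3.97%. The 1019 were chosen on the larger value of the pair, which favours members that differ. The largest upward differences among the 1019 were those of Pc_TC021336, described above, and of 3 further transcripts. Pc_TC091995 (312 nt) stood at 19.2 RPKM under water without salt and 148 with salt, and at 403 (control), 472 (450 mM) and 562 (700 mM) unsubmerged (7.72-fold, 7.01 to 8.52). Pc_TC084146 (496 nt) stood at 15.7, 109, 114, 187 and 265 RPKM in the same order (6.94-fold, 6.37 to 7.56). Pc_TC119556 (379 nt) stood at 20.4, 139, 146, 207 and 109.5 RPKM (6.82-fold, 6.26 to 7.43). For these 3, submergence in salt was below the control, and submergence in water was lower still.

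The largest downward differences among abundant members were smaller. Pc_TC012499 (2511 nt) stood at 107 RPKM under water without salt and 20.8 with salt, and at 6.79 (control), 89.3 (450 mM) and 0.041 (700 mM) unsubmerged (5.14-fold lower, 4.96 to 5.32). Its 6 reads at 700 mM compare with 965 to 21178 reads in the other 4 libraries. The next 3 had a common form, lower in each library with salt than in its partner without. Pc_TC033633 (1972 nt) stood at 245 RPKM under water without salt and 86.4 with salt, and at 69.6 (control), 21.8 (450 mM) and 14.5 (700 mM) unsubmerged (2.84-fold lower, 2.78 to 2.89). Pc_TC000995 (4409 nt) stood at 145, 51.4, 40.7, 14.3 and 8.29 RPKM (2.82-fold lower, 2.77 to 2.87), and Pc_TC038155 (2891 nt) at 152, 54.3, 29.7, 8.77 and 4.17 RPKM (2.80-fold lower, 2.74 to 2.86).

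Of the 6 most abundant members of the pair, 4 were lower in salt by about the same amount and 2 differed little. Pc_TC038631 (881 nt), first in both libraries, stood at 6699.6 RPKM under water without salt and 4297 with salt, against 3139 in the control, 3272 at 450 mM and 2073 at 700 mM. Its log2 ratio under water was −0.64. Pc_TC001241 (734 nt) went from 3164 to 2039 RPKM (log2 ratio −0.63), Pc_TC004232 (735 nt) from 2695 to 1755 (−0.62) and Pc_TC012048 (1053 nt) from 2282 to 1414 (−0.69). Pc_TC029576 (539 nt) went from 2548 to 2244 RPKM (−0.18) and Pc_TC012156 (1344 nt) from 2321 to 1990.4 (−0.22). None of the 6 reached 2-fold, and all 6 were lower in salt under water.

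Levels in all 5 libraries placed the called members relative to unsubmerged plants. The 3503 higher members had median RPKM of 1.14 under water without salt and 4.01 with salt, against 4.45 in the control, 5.62 at 450 mM and 6.54 at 700 mM. The 2787 lower members had medians of 3.47 in water and 1.11 in salt, against 1.13, 0.73 and 0.65. In both groups the median of submergence in water was the furthest from the others. The calls favour this, because they were made on the ratio to that library. Over all members the medians were 2.89 and 2.75 in the submerged pair, in the same order, and 2.77, 2.497 and 2.55 in the unsubmerged libraries.

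The same showed in which library was the extreme. Submergence in water was the lowest of the 5 for 3231 of the 3503 higher members (92.2%), against 26.2% of all members, and the highest for 2617 of the 2787 lower members (93.9%), against 44.1% of all members. The calls themselves require a low or a high value in that library relative to its partner, which raises these shares. Submergence in water also cannot be the highest library for a higher member or the lowest for a lower member. This raises the shares of the other libraries given next, so they are not like for like with the shares over all members. Among higher members, 700 mM NaCl was the highest library for 1748 (49.9%), submergence in salt for 957 (27.3%), 450 mM for 673 (19.2%) and the control for 125 (3.57%), where the shares over all members were 18.2%, 16.1%, 10.8% and 10.9%. Among lower members, 700 mM was the lowest for 1216 (43.6%), 450 mM for 912 (32.7%), submergence in salt for 460 (16.5%) and the control for 199 (7.14%), where the shares over all members were 35.3%, 22.3%, 8.49% and 7.72%.

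Higher members divided evenly around the control level. Submergence in salt was above the control for 1847 of the 3503 higher members (52.7%), and between submergence in water and the control for the other 1656 (47.3%). Of the 2787 lower members, 1339 (48.0%) were below the control in submergence in salt and 1448 (52.0%) lay between. The 957 higher members at their maximum in submergence in salt had medians of 1.05 RPKM under water without salt and 3.53 with salt, and of 1.74 (control), 2.11 (450 mM) and 2.03 (700 mM) unsubmerged. A call already places submergence in salt above or below submergence in water, so the members lying between are simply the rest. The share of all members above the control in submergence in salt is not given here. The even split is therefore not shown to be particular to called members. All these orders use a single control library.

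**Figure D4:**
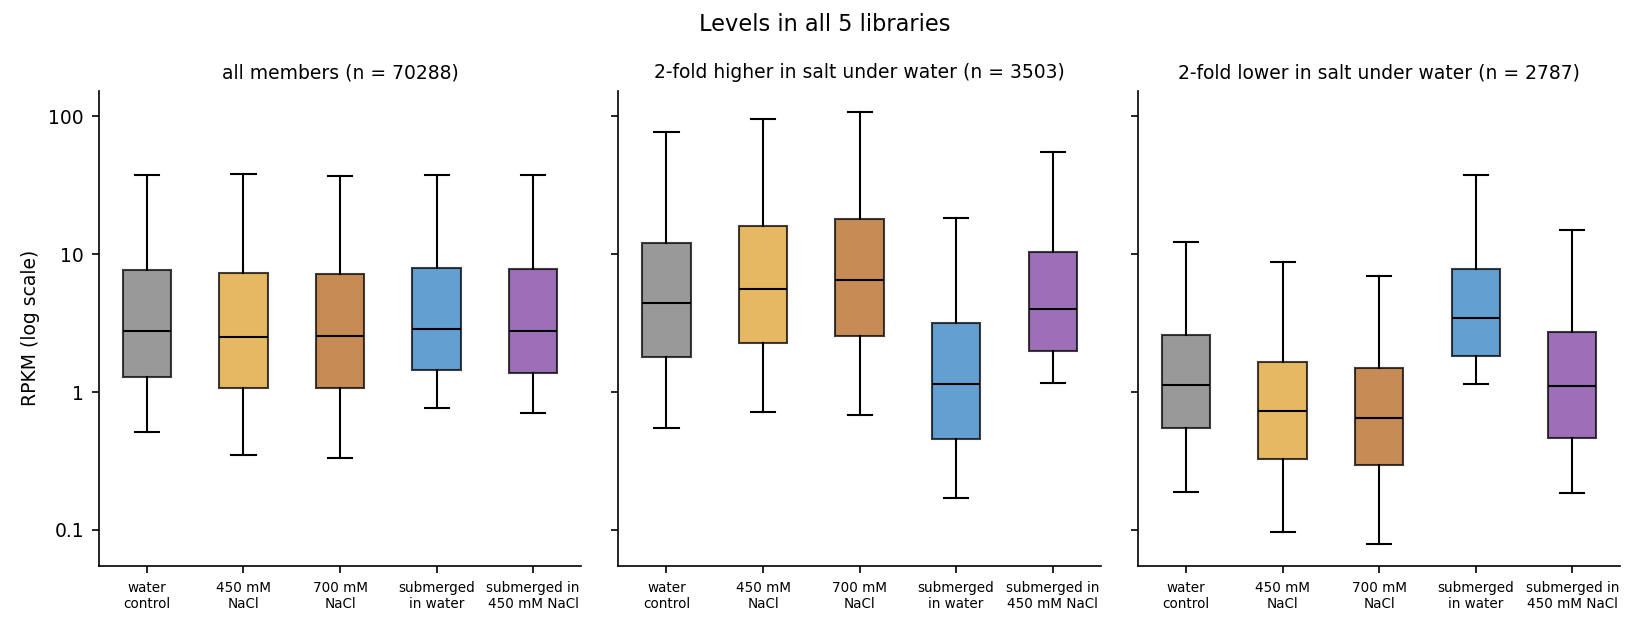
RPKM (vertical, log scale) in the 5 libraries for all members, for the 3503 that were 2-fold higher in salt under water and for the 2787 that were lower; boxes span the quartiles with the median as a line, and whiskers reach the 5th and 95th percentiles of transcripts. In the middle panel submergence in water has the lowest box (median 1.14) and in the right panel the highest (3.47).

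Each group of called members held between 0.72% and 13.3% of total expression, depending on the library. Higher members summed to 2.38% of all RPKM under water without salt and 7.25% with it, differences fixed by their choice, and to 9.12% in the control, 11.7% at 450 mM and 13.3% at 700 mM, where nothing was chosen beyond RPKM above 0. Lower members summed to 4.06% under water without salt and 1.62% with it, and to 1.31%, 0.95% and 0.72% in the unsubmerged libraries in the same order. In unsubmerged plants the sum of the higher members was thus larger, and that of the lower members smaller, at each step in salt.

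The closest comparison in the series is 450 mM NaCl against the water control, which asks for the effect of the same salt in plants not submerged and uses none of the same libraries. Over the same 70288 members, log2 ratios were less spread there, with a standard deviation of 0.42 against 0.60 under water. That salt contrast called 464 members higher (0.66%) and 1615 lower (2.3%). With RPKM as deposited, its balance was thus the reverse of the one under water among members. The log2 factors of median-of-ratios scaling were 0.08 (control) and −0.07 (450 mM) in unsubmerged plants. They lay closer together in submerged plants, at 0.10 without salt and 0.06 with it. The 464 and 1615 were not recomputed with this scaling, which would move their log2 ratios upward, so its part in the reversal was not tested. Without the requirement for RPKM above 0 in all libraries, lower calls outnumbered higher ones under water too (4104 and 3545). Members had been selected on their level in the submerged pair, not in this one. Whether the contrasts differ could not be tested with 1 library each.

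Members higher in salt under water were mostly also above 0 in salt without submergence, though seldom 2-fold. Their median log2 ratio without submergence was 0.33 (quartiles 0.09 and 0.54) at 450 mM, with 2851 of 3503 (81.4%) above 0, against a median of −0.11 and 38.3% above 0 over all members. At 700 mM against the same control the median was 0.46, against −0.14 over all members. Lower members had a median of −0.39 (quartiles −0.76 and −0.04) at 450 mM and −0.44 at 700 mM. The 359 members at least 4-fold higher under water had a median of 0.47 at 450 mM, and the 105 at least 4-fold lower had a median of −0.55.

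Both salt contrasts called 154 members higher, which is 4.40% of those higher under water and 33.2% of those higher without submergence. They called 369 members lower, 13.2% and 22.8% of the respective lists. Shares of the lists under water, 4.40% and 13.2%, stand beside the 0.66% and 2.3% of all members called without submergence. Shares of the lists without submergence, 33.2% and 22.8%, stand beside the 4.98% and 3.97% of all members called under water. Across members, Pearson r between the log2 ratios was 0.43 and Spearman rho 0.45, as a description over transcripts, which share length and libraries and are not replicates. Among the 18141 members reaching RPKM 10 in any of the 4 libraries, r was 0.63 and rho 0.70, and among the 1287 reaching RPKM 100, 0.66 and 0.83. Without the requirement for RPKM above 0 in all libraries, r was 0.26.

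**Figure D5:**
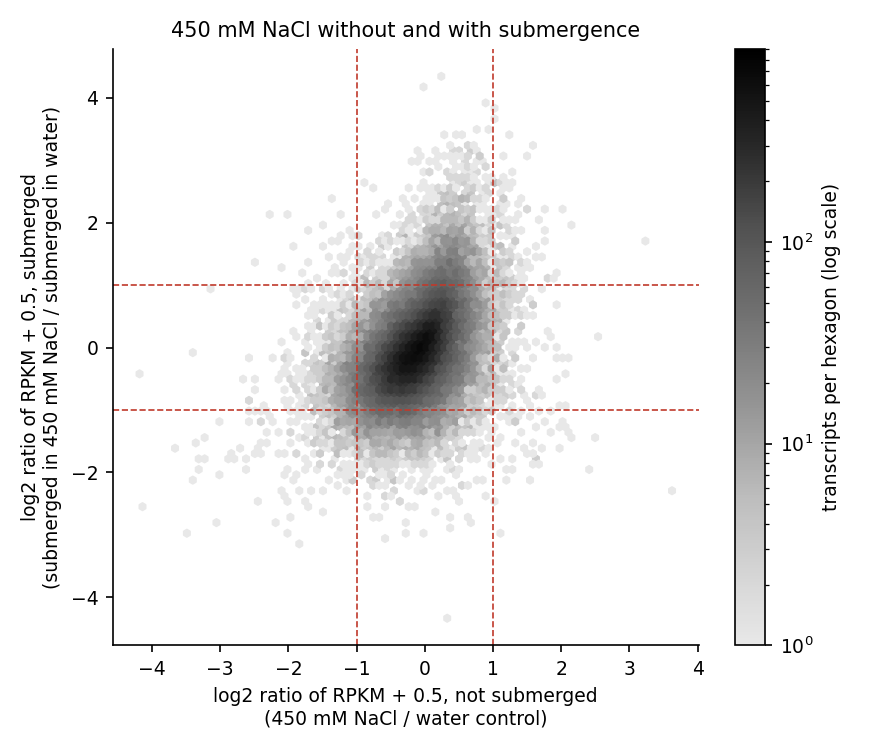
Log2 ratio of RPKM + 0.5 for 450 mM NaCl in submerged plants (vertical) against the same in plants not submerged (horizontal) for 70288 members; shading gives transcripts per hexagon and dashed lines mark 2-fold. The cloud tilts upward (Pearson r 0.43) and is taller than wide (standard deviations 0.60 and 0.42).

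Some members were called in opposite directions by the salt contrasts. Under water 50 members were lower and without submergence higher, which is 10.8% of the 464 higher without submergence, against 3.97% of all members lower under water. The reverse held for 37, which is 2.29% of the 1615 lower without submergence, against 4.98% of all members higher under water. A set of 48 members had RPKM at 700 mM under 2% of the mean of the other 4 libraries, with at least 100 reads in those 4. Of the 48, 40 (83.3%) were lower in salt under water, 0 were higher, and 24 were among the 50. Pc_TC012499 and Pc_TC067107 belong to the 48, a set chosen after the values were seen. Without the 48, 2747 members were lower (3.91%), and their part in the remaining results was not tested further.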

How the data were processed

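RNA of 5 libraries, 1 per treatment, was measured by Illumina sequencing of mRNA libraries from TRI reagent RNA, per the labels' protocols. Per the series text, the authors filtered reads with NGS QC Toolkit, mapped them to assembled transcripts and deposited 1 RPKM value per transcript and library; for mapper, versions, assembly and the handling of shared reads, the sources used here give nothing. RPKM values were compared as deposited, with 0.5 added on the log2 scale and a limit of 2-fold, in Python 3.11.15 with numpy 2.4.6, pandas 2.3.3 and scipy 1.17.1.

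Read totals, lengths (at least 200 nt) and whole reads were solved from RPKM steps for all 152263 transcripts above 0, with a tolerance of 0.001 reads, and 99.1% of each read total lay in the listed transcripts. Where all reads of a transcript share a divisor, the smallest solution was taken. The solution was tested on simulated data. Reads served for counting intervals (Clopper-Pearson, ratios scaled by read totals).

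Groups came from sample titles. The members, classes and rules were chosen with earlier results of these data known. Named transcripts were the 8 largest rises and falls, the 4 largest of each at RPKM 100 or more, the 6 most abundant and the 2 at the RPKM limit. No gene list could be applied.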

Additional observations from a re-analysis of the deposited data

Results flagged for a closer look

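Results are listed here where 450 mM NaCl went with opposite differences in submerged and in unsubmerged plants. With a single library behind every treatment, no test of the opposition was run, and the difference was not tested. Among members, 50 transcripts were at least 2-fold higher in salt without submergence and at least 2-fold lower in salt under water, which is 10.8% of those higher without submergence, against 3.97% of all members lower under water. The reverse held for 37, which is 2.29% of those lower without submergence, against 4.98% of all members higher under water. Of the 50, 24 were among the 48 members near 0 at 700 mM NaCl, a set chosen after the values were seen.

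Among the named transcripts, Pc_TC012499 had a log2 ratio of 3.62 in salt without submergence and −2.33 under water, and it had 6 reads at 700 mM NaCl. Pc_TC100876 had log2 ratios of 1.10 and −3.01, from 14 and 40 reads without submergence and 220 and 18 reads under water.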

How the results depend on the processing

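No paired analysis was possible because each treatment has 1 library, so no replicate could be left out either. In the order higher, lower and percent of calls that are higher, the values were 3503, 2787 and 55.7% as reported. A pseudocount of 0.1 gave 5175, 5002 and 50.9%, a pseudocount of 1 gave 2214, 1447 and 60.5%, and filtering at RPKM 5 gave 1497, 1023 and 59.4%. Median-of-ratios scaling, which shifts log2 ratios of the pair by 0.04, gave 61.1% higher, and equal sums of RPKM gave 57.8%. The share was 46.4% without the requirement for reads in all libraries, 43.3% (5464 lower) with no filter, and 77.4% at 4-fold (359 and 105). The 4-fold share was not recomputed without that requirement. Asking for a difference beyond counting error left the calls as they were, which the rules for a call largely fix beforehand.

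The median log2 ratio was −0.083 and −0.065 with pseudocounts of 0.1 and 1, −0.031 and −0.055 with the scalings in the order above, −0.039 with the filter at RPKM 5 and −0.092 without the requirement for reads. The standard deviation was 0.74, 0.51, 0.59 (median-of-ratios), 0.62 and 0.63 in that order. Pearson r of the salt contrasts was 0.40 and 0.45 with the pseudocounts, 0.45 with median-of-ratios scaling, 0.59 at RPKM 5, 0.26 without the requirement for reads, 0.63 at RPKM 10 and 0.44 without the 48 members near 0 at 700 mM, a setting added after seeing the data.

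In the class under RPKM 2, 10.3% were higher and 11.3% lower with a pseudocount of 0.1, 1.90% and 1.17% with 1, and 5.72% and 4.01% with median-of-ratios scaling; 7.62% were lower without the requirement for reads. By the level of the other 3 libraries these were 2.62% and 7.14%, and 24.0% and 0 at 200 and over. Submergence in water was lowest for 89.2%, 94.4% and 93.3% of higher members with pseudocounts of 0.1 and 1 and at RPKM 5. It was highest for 92.8% of lower members with 0.1, 96.3% at RPKM 5 and 87.5% without the requirement for reads. All 92 recomputed values of named transcripts past 2-fold stayed past it in the same direction.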

Other observations

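Some of the named transcripts kept a nearly fixed ratio to each other in all 5 libraries. Among 406 pairs of the 29 transcripts named for their ratio or level, the RPKM ratio of a pair varied by less than 10% over the libraries for 3. These were the 3 pairs among Pc_TC038631, Pc_TC001241 and Pc_TC004232. Pc_TC038631 stood at 2.08 to 2.12 times Pc_TC001241 and at 2.37 to 2.49 times Pc_TC004232 in every library, and Pc_TC001241 stood at 1.12 to 1.17 times Pc_TC004232. The solved lengths of the last pair, 734 and 735 nt, differ by 1 nt. Their sequences were not analysed here, and whether they are copies or pieces of 1 gene was not tested. The next closest pair, Pc_TC033633 and Pc_TC000995, had ratios of 1.52 to 1.76.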
